A study of Mus musculus with 2 samples.

Results

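Pdzk1ip1 and 3 PDZ scaffold genes of the NHERF family, Pdzk1, Slc9a3r1 and Slc9a3r2, were examined in C2C12 myotubes carrying a constitutively active estrogen receptor α. The 4 genes were listed by name, of 19938 genes with a probe set assigned to that gene alone, and each was read by 1 such probe set. Pdzk1ip1 was listed because its difference between the arrays was already known, so its values are a description. C2C12 is an established mouse myoblast line whose cells fuse into myotubes when serum is lowered. Per the labels' protocols the cells grew in 10% fetal bovine serum, were kept at confluence in 2% horse serum for 7 days, and were then infected at a multiplicity of infection of 30 for 48 h. The Ad-caERα culture received an adenovirus with the active receptor, and the Ad-DsRed culture received an adenovirus with the red fluorescent protein DsRed. Each group was 1 array, so no test between the groups was possible, and no p-value or replicate error is given. The labels do not name the promoter that drives either insert, nor the receptor's species or mutation. In total RNA from a whole culture, a change in the number of expressing cells and a change in RNA per cell cannot be told apart. As a check of the labels, the log2 signal of Esr1, which encodes this receptor in the mouse, was 7.38 with Ad-DsRed and 8.44 with Ad-caERα. Groups follow the sample titles, since a further label of the Ad-caERα sample writes sigma in place of α.

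Pdzk1ip1 encodes MAP17, a small membrane protein of the kidney proximal tubule whose tail ends in a motif that PDZ domains bind. It takes its name from its binding to PDZK1, also called NHERF3, a scaffold with several PDZ domains that gathers transporters at the apical membrane. Slc9a3r1 encodes NHERF1 (EBP50) and Slc9a3r2 encodes NHERF2 (E3KARP), scaffolds with a pair of PDZ domains and a tail that binds the ERM proteins ezrin, radixin and moesin, which link membrane to actin. In human breast cancer cells, estrogen raises the transcripts of NHERF1 and PDZK1, and estrogen receptor α acts by binding its response element or through AP-1 and Sp1 at other sites.

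The 250 bases before the RefSeq start site of each of the 4 genes are printed because the vector carries a transcription factor and these are the stretches closest to the starts of the genes compared. Where RefSeq gives more than 1 start, the most upstream was taken. Capitals mark GGTCA or its reverse complement TGACC, a single arm of the estrogen response element, and all sequences run 5′ to 3′ on the gene's strand.
Pdzk1ip1: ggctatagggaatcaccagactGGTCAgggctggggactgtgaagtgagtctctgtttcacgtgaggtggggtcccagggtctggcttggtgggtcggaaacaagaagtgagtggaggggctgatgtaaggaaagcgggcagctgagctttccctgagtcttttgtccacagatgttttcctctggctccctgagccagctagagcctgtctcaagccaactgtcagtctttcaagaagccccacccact
Pdzk1: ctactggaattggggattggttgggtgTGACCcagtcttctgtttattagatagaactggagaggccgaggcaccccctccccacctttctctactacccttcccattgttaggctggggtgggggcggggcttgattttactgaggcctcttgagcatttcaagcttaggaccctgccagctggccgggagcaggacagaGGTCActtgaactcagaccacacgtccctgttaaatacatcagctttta
Slc9a3r1: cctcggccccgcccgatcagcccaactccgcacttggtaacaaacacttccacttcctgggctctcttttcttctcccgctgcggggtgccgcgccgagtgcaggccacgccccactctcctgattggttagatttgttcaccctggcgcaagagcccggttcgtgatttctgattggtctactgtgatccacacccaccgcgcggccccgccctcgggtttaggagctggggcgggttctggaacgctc
Slc9a3r2: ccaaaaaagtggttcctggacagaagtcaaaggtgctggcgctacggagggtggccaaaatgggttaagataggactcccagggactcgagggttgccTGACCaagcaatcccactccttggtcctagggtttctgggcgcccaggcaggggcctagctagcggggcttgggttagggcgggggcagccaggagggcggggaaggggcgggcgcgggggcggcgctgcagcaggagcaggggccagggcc
On build GRCm38.p6 the Pdzk1ip1 window is chr4:115088458-115088707 on the plus strand, and that of Pdzk1 is chr3:96829815-96830064 on the plus strand. The Slc9a3r1 window is chr11:115163091-115163340 on the plus strand and the Slc9a3r2 window chr17:24650306-24650555 on the minus strand.

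The Pdzk1ip1 window held 1 GGTCA, starting 228 bases before the start site. The Pdzk1 window held 2 such arms, starting 223 and 49 bases before it, the Slc9a3r2 window held 1 at 152 bases, and the Slc9a3r1 window held 0. The arm on either strand is common, being in 35.2% of the 32851 RefSeq windows of 250 bases. The full palindrome GGTCANNNTGACC, which contains the arm, was in 0.0639% of all windows and in 0 of the 4. The AP-1 motif TGANTCA was in 6.75% of all windows and in 0 of the 4. The GC box GGGCGG, a motif that Sp1 binds, was counted on both strands and was in 32.7% of all windows. It occurred 0 times in the Pdzk1ip1 window, 1 time in that of Pdzk1, 3 times in that of Slc9a3r1 and 4 times in that of Slc9a3r2. GC content was 55.6% for Pdzk1ip1, 53.2% for Pdzk1, 62.8% for Slc9a3r1 and 66.4% for Slc9a3r2, against a median of 52.4% over all windows. These are letter matches in short windows, and binding was not measured.

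The log2 signal of Pdzk1ip1 was 5.34 with Ad-DsRed and 9.82 with Ad-caERα. The difference of 4.48 on the log2 scale ranked 1 of 21789 single-gene probe sets from high to low. It also ranked 1 by size regardless of sign. By comparison, the probe set of mouse Esr1 ranked 77. How well it reads the inserted receptor, whose species and mutation are not stated, is not known. The control signal of Pdzk1ip1 was low. A detection floor of 5.11 was set at the 95th percentile of 1212 probe sets for odorant and pheromone (vomeronasal) receptors, which muscle cells are taken not to express. The Ad-DsRed signal of Pdzk1ip1 lay 0.23 above that floor, and 38 of the 1212 receptor probe sets (3.14%) were at least as bright on that array. In Ad-caERα, 0 of them were as bright as Pdzk1ip1. As deposited, the signals differ 22.3-fold. With the floor at the 99th percentile of the same probe sets, 6.16, the Ad-DsRed signal is below the floor and Pdzk1ip1 was at least 12.6-fold higher in Ad-caERα. The size of the difference therefore depends on how the control signal is read, while its rank does not use the floor.

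**Figure D1:**
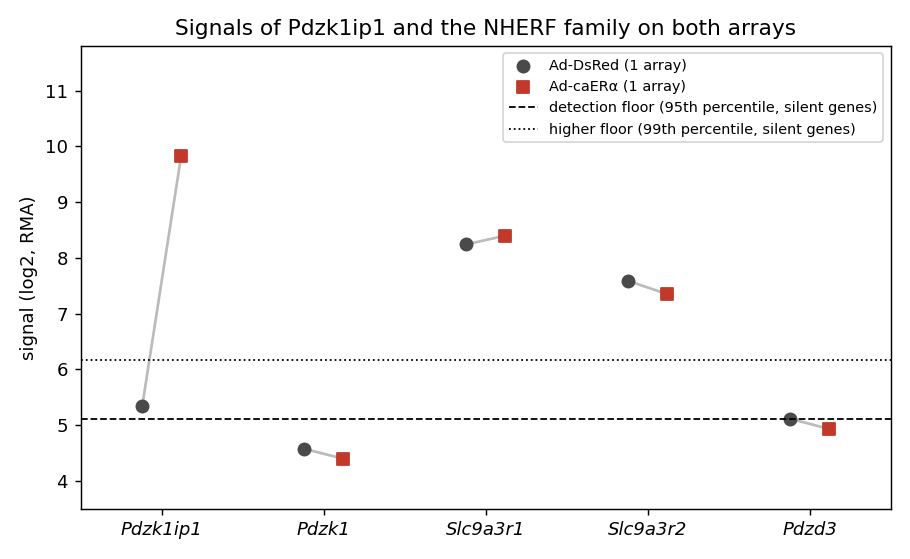
Log2 RMA signal (vertical axis) of Pdzk1ip1, the 3 scaffold genes and Pdzd3 on the Ad-DsRed array (circles) and the Ad-caERα array (squares), 1 array each, with no error bars because there are no replicates. Pdzk1ip1 goes from 5.34, between the dashed floor at 5.11 and the dotted floor at 6.16, to 9.82, while the other 4 genes lie almost level.

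The scaffold genes showed no difference of that order. Of the 4 listed genes, 3 passed the floor on at least 1 array, and Pdzk1ip1 alone was at least 2-fold higher, where 0.590% of the 13556 measured genes were. None of the 4 was at least 2-fold lower, where 0.0959% were. Pdzk1ip1 was chosen on this same contrast, so nothing is read from those counts.

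Pdzk1, the scaffold after which Pdzk1ip1 is named, was below the floor on both arrays, at 4.57 with Ad-DsRed and 4.40 with Ad-caERα. Of the receptor probe sets taken as silent, 10.4% were at least as bright as Pdzk1 with Ad-DsRed and 13.3% with Ad-caERα. The deposited difference of -0.18 ranked 17244 of 21789 from high to low and gives no fold, since both values are below the floor. Both signals of Pdzk1 thus lay within the range of the probe sets taken as silent.

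Slc9a3r1, the gene of NHERF1, was well above the floor, at 8.24 with Ad-DsRed and 8.40 with Ad-caERα. It was 1.11-fold higher in Ad-caERα, a difference of 0.16 that ranked 4453 of 21789, and 44.9% of measured genes differed by more in either direction. The middle 80% of the 2629 measured genes within 0.5 of its mean signal ran from -0.22 to 0.30, a range that includes Slc9a3r1.

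Slc9a3r2, the gene of NHERF2, gave 7.58 with Ad-DsRed and 7.35 with Ad-caERα. It was 1.18-fold lower in Ad-caERα, a difference of -0.23 that ranked 18690, and 26.7% of measured genes differed by more in either direction. For the 2062 measured genes of like signal the middle 80% ran from -0.25 to 0.32, so Slc9a3r2 lay near the lower end of that range. The NHERF1 and NHERF2 genes thus lay on opposite sides of 0. For scale, the difference had an SD of 0.13 among repeat probe sets for a gene (770 genes) and of 0.22 over the silent receptor probe sets. The SD of 0.13 comes from probe sets on the same 2 arrays, so it holds no variation between cultures. Over all measured genes the difference had an SD of 0.27. As deposited, the differences of Slc9a3r1 and Slc9a3r2 both exceed the 0.13 and lie below the 0.27 in size. After centring on the median or loess correction, that of Slc9a3r1 was 0.12, below the 0.13. That of Slc9a3r2 was -0.27 after centring and -0.26 after loess correction, close to the 0.27 in size. Against the SD of 0.22, the 0.16 of Slc9a3r1 is below and the 0.23 of Slc9a3r2 is close. With 1 array per group their direction has no replicate check.

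Pdzd3, the remaining NHERF family gene, encodes another apical PDZ protein of kidney and gut and is not among the 4. It was at 5.11 in Ad-DsRed, 0.00777 above the floor, and at 4.93 in Ad-caERα, below the floor. Of the silent receptor probe sets, 57 were at least as bright in Ad-DsRed and 69 in Ad-caERα.

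**Figure D2:**
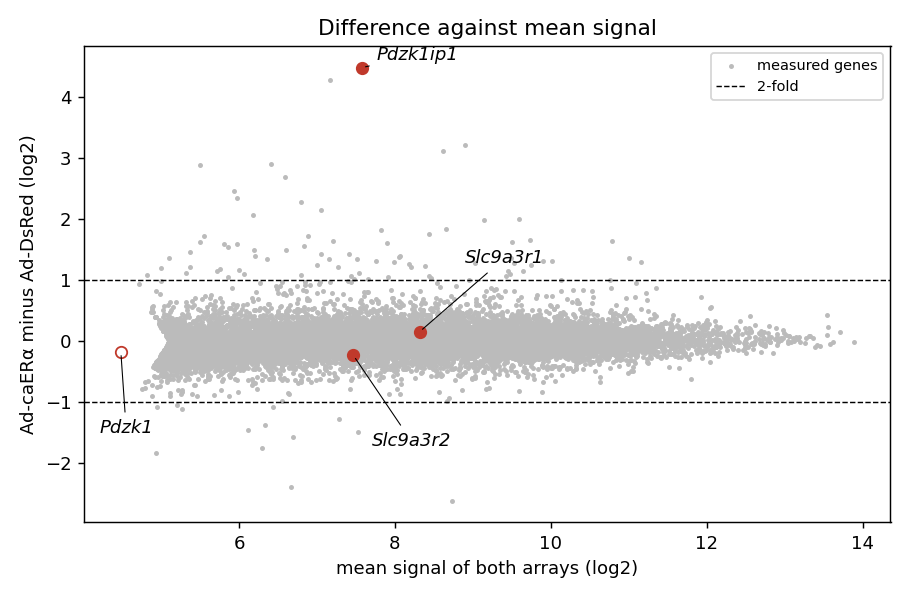
Difference between the arrays (Ad-caERα minus Ad-DsRed, log2, vertical axis) against the mean log2 signal of both arrays for 13556 measured genes (grey) and the 4 listed genes (red; Pdzk1 is open because it was below the floor on both arrays). Pdzk1ip1 is the topmost point at 4.48, and the 3 scaffold genes lie between the dashed 2-fold lines.

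The measured genes next to Pdzk1ip1 on mouse chromosome 4 had differences of -0.49 to 0.10. In RefSeq gene order, among genes with a single-gene probe set, it lies between Tal1, a blood and endothelial transcription factor gene, and Cyp4x1, a cytochrome P450 gene. Tal1 gave 6.01 with Ad-DsRed and 6.11 with Ad-caERα, a difference of 0.10. Stil, the centriole assembly gene beyond Tal1, was at 8.10 and 7.61, a difference of -0.49, and Cmpk1, a pyrimidine nucleotide kinase gene, was at 9.59 and 9.61. On the other side Cyp4x1 was below the floor on both arrays, at 3.99 and 4.20. The next genes there, Cyp4a12a and Cyp4a12b, near-identical copies whose probes may not separate them, were also below it on both arrays. Of the 3 neighbours that were measured 0 differed by 2-fold, which is near the background of 0.590% higher and 0.0959% lower.

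Over all 4 loci, 17 of 24 neighbours were measured, their differences together with those below the floor ran from -0.49 to 0.39, and 0 reached 2-fold in either direction. Since 0.590% of all measured genes were 2-fold higher and 0.0959% lower, a count of 0 among 17 is near the background. Next to Slc9a3r1, the acetyltransferase gene Nat9 was 0.39 higher on the log2 scale, at 6.78 and 7.16. Around Slc9a3r2, the DNA repair gene Nthl1 differed by 0.20 and the neuropeptide gene Npw by -0.13, and Tsc2, a brake on mTORC1, was at 10.46 on both arrays. Beside Pdzk1, the connexin gene Gja5 differed by -0.42 and Gpr89 by 0.18.

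**Figure D3:**
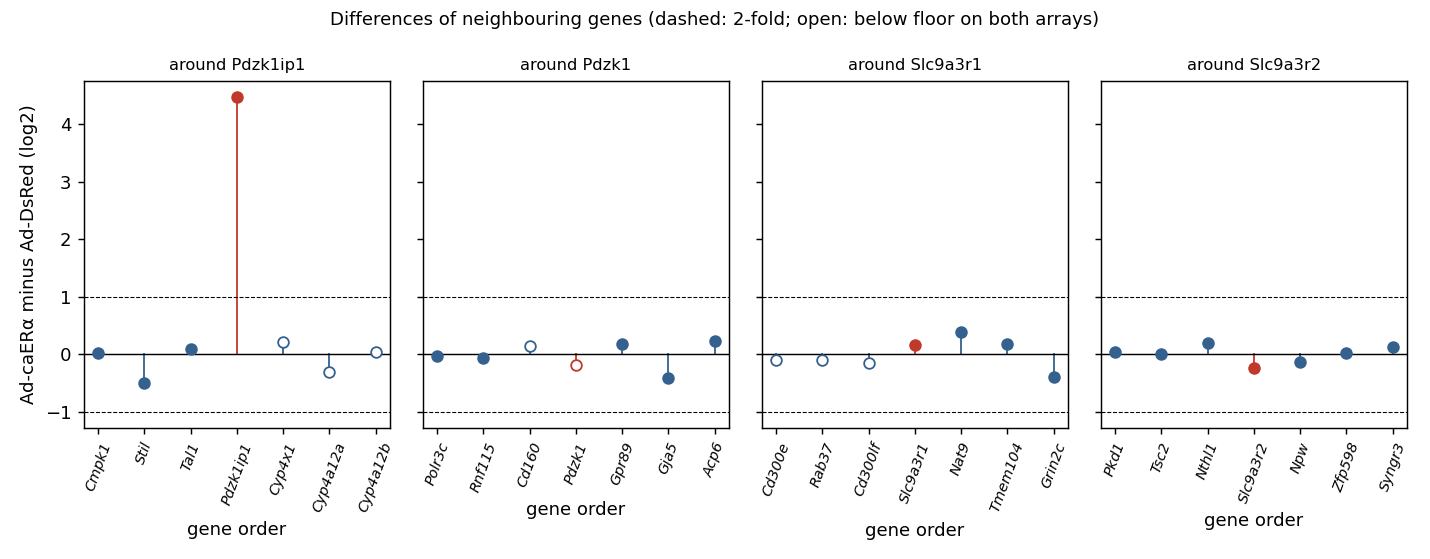
Difference between the arrays (Ad-caERα minus Ad-DsRed, log2, vertical axis) for each listed gene (red) and the 3 nearest genes on either side with a single-gene probe set (blue), in RefSeq gene order on the horizontal axis; open points were below the floor on both arrays. Only Pdzk1ip1 passes the dashed 2-fold lines, and the 24 neighbours lie between -0.49 and 0.39.

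Of the measured genes, those nearest to Pdzk1ip1 in their deposited difference were Greb1, Srgn, Tmem86a, Hpgd and Akr1c14, in that order, but the order depends on the floor. Greb1, an estrogen receptor cofactor and target gene, read 5.03 with Ad-DsRed, below the floor, and 9.31 with Ad-caERα. Greb1 was thus at least 18.5-fold higher by that floor, and at least 8.90-fold higher by the higher floor of 6.16. By the same floors Pdzk1ip1 was 22.3-fold and at least 12.6-fold higher, above Greb1 with either floor. Srgn, the gene of the proteoglycan serglycin, was at 7.30 and 10.50, a difference of 3.21. Tmem86a, the gene of an enzyme that cleaves lysoplasmalogens, was at 7.05 and 10.18, a difference of 3.12. These last genes were above the floor on both arrays. Hpgd, which inactivates prostaglandins, was at 4.95 and 7.85, and Akr1c14, a steroid-metabolizing aldo-keto reductase gene, was at 4.05 and 6.94. Both had a control signal below the floor. With values raised to the higher floor of 6.16, a choice made after seeing the data, Srgn came nearest to Pdzk1ip1, 0.45 away. Greb1 was then 0.50 away and Tmem86a 0.53, while Hpgd ranked 12 and Akr1c14 101 in nearness. Likeness here is nearness of the difference over 2 arrays and says nothing about a shared pattern beyond them.

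Transcripts of proteins known to bind these scaffolds, with a few linked to MAP17 itself, were examined by role. Of 25 transporter and channel genes with a single-gene probe set, 11 were measured, 5 above 0 (50.2% of all measured genes were) and 6 below, with a median difference of -0.025 against 0.0017 over all measured genes. The list median has no settled sign, being 0.077 with the higher floors and 0.031 after loess correction. None of the 11 reached 2-fold, near the background of 0.590% higher and 0.0959% lower. Slc5a2, the glucose transporter SGLT2 that MAP17 activates, gave 5.39 with Ad-DsRed and 5.62 with Ad-caERα, both close to the floor. Slc5a1, the related SGLT1, and Slc9a3, the sodium-proton exchanger from which the NHERF proteins take their name, were below the floor on both arrays, as was Cftr, the chloride channel that binds NHERF1. The highest were Slc22a4, an ergothioneine transporter (0.39), and Slc26a6, an anion exchanger (0.31). The lowest were Slc1a3, a glutamate transporter (-0.61), Slc34a1, the proximal tubule phosphate transporter (-0.42), and Slc4a4, a sodium bicarbonate transporter (-0.32). These signals were weak. Slc34a1 was at 5.80 with Ad-DsRed and 5.38 with Ad-caERα, and Slc4a4 at 5.53 and 5.21. Both genes were thus below the higher floor of 6.16 on both arrays, and with that floor neither shows a difference. Slc1a3, at 6.25 and 5.64, was above that floor only with Ad-DsRed.

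Among receptors that bind the scaffolds, 9 of 11 with a single-gene probe set were measured, and 7 of those 9 lay below 0, where 48.8% of all measured genes did. Their median difference was -0.21, or -0.13 after loess correction, and 0 reached 2-fold, near the background of 0.590% higher and 0.0959% lower. Pdgfrb, a platelet-derived growth factor receptor gene whose product binds NHERF1 and NHERF2, had the lowest difference, at 10.07 with Ad-DsRed and 9.69 with Ad-caERα. Egfr was at 8.51 and 8.17, and Pdgfra at 7.25 and 6.96. Scarb1, the HDL receptor that PDZK1 stabilizes in liver, was at 8.27 and 8.38, and the Wnt receptor gene Fzd4 was highest at 6.37 and 6.67.

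The other partners were mostly cytosolic or cytoskeletal, with the membrane proteins Pag1 and Podxl among them. Of these partners 14 of 21 measured genes lay below 0, where 48.8% of all measured genes did, with a median difference of -0.021. That value was -0.058 after centring and the mean was -0.078. None passed 2-fold, which is near the 0.590% and 0.0959% of all measured genes. The ERM genes that anchor NHERF1 and NHERF2 were all bright. Ezr gave 10.17 with Ad-DsRed and 10.22 with Ad-caERα, Rdx at 10.30 and 10.28, and Msn at 12.15 and 12.09, so none of the 3 differed by more than the SD of 0.13 between probe sets of a gene. The lowest were Pag1, a raft adaptor that binds NHERF1, at 7.53 and 6.88, and Podxl, the sialomucin podocalyxin, at 7.41 and 6.90, followed by the kinase anchor gene Akap10 (-0.16). The highest was Tbc1d10a, a Rab GTPase-activating protein gene that binds NHERF1 (0.17). Numb, the Notch inhibitor that MAP17 has been reported to bind, was at 9.14 on both arrays.

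PDZ scaffold genes outside the family gave the background for the family itself. Of 55 with a single-gene probe set 48 were measured, and 33 of the 48 lay below 0, against 48.8% of all measured genes, with a median of -0.17 and a mean of -0.096. None passed 2-fold, where 0.590% and 0.0959% of all measured genes did. The lowest were Shank2, a postsynaptic scaffold gene (-0.47), Afdn, the adherens junction gene afadin (-0.46), and Sntb1, a syntrophin of the dystrophin complex (-0.44). The highest were Lnx2, a ubiquitin ligase with PDZ domains (0.63), Tax1bp3, a small protein made of a lone PDZ domain (0.56), and Pdlim4 (0.27). The Z-disc genes Ldb3 and Pdlim3 differed by -0.17 and -0.25. The difference of -0.23 for Slc9a3r2 thus lay close to the median of the other PDZ scaffolds, that of Slc9a3r1 lay above it, and that of Pdzk1ip1, which has no PDZ domain itself, lay far outside the list's range of -0.47 to 0.63.

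**Figure D4:**
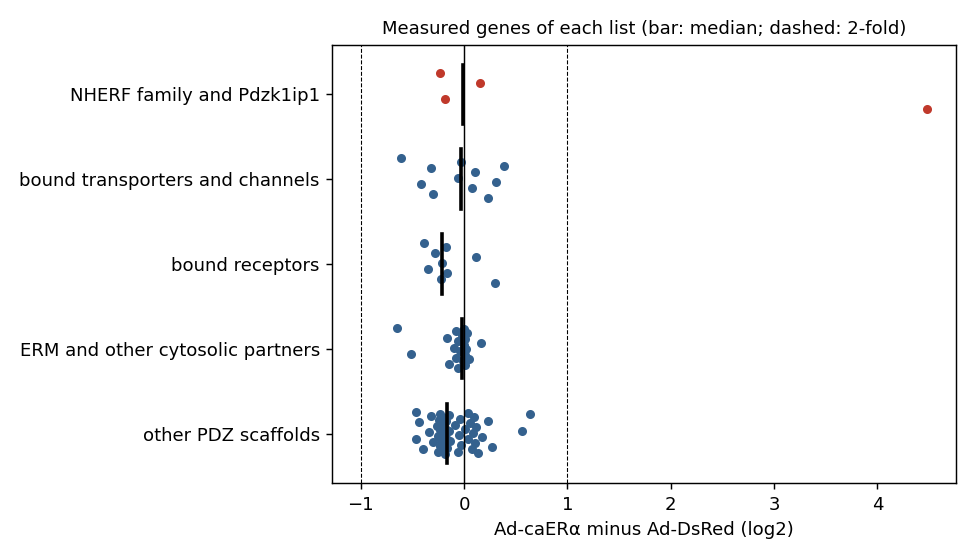
Difference between the arrays (Ad-caERα minus Ad-DsRed, log2, horizontal axis) for each measured gene of the NHERF family with Pdzk1ip1 (red) and of 4 partner or comparison lists (blue); points are spread vertically only for legibility, and bars mark medians. All genes but Pdzk1ip1 lie within the dashed 2-fold lines, and the receptor and other PDZ scaffold medians are at -0.21 and -0.17.

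All 8 muscle markers were measured on these arrays, where 13556 of all 19938 genes were. Of the 8, 6 lay below 0, where 48.8% of all measured genes did. Differences of the 8 ran from -0.42 for the titin gene Ttn to 0.22 for the desmin gene Des. Myh3 differed by -0.25, Myog by -0.18 and Myod1 by 0.0036. Of 8 epithelial markers 4 were measured, all 4 slightly lower in Ad-caERα (-0.23 to -0.10), where 48.8% of all measured genes were lower. That share is over all signal levels, while these markers were dim. For the 1457 measured genes within 0.5 of the mean signal of Pdzd3, near the floor, the middle 80% ran from -0.39 to 0.22. Krt8, a keratin gene, was at 6.50 and 6.28, and Cubn, the proximal tubule gene cubilin, was at 6.24 and 6.10. Krt18 and Cdh1 lay closer to the floor, and Epcam, Cdh16, Vil1 and Lrp2 were below the floor on both arrays. The summed linear signal of the 8 epithelial markers, including the 4 below the floor, was 337 in Ad-DsRed and 301 in Ad-caERα. Of 5 leukocyte markers 1 was measured, of 4 endothelial markers 1 and of 3 adipocyte markers 1. None of these measured markers was higher in Ad-caERα, against 50.2% of all measured genes that were. The arrays had medians of 6.05 and 6.02 and correlated at r = 0.990 across 13556 measured genes, which are not independent replicates.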

How the data were processed

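The deposited table holds 1 log2 signal for each probe set and array, made by the authors with Affymetrix Expression Console and RMA (background correction, quantile normalization and probe summarization), per the submitters' processing notes. Tool versions were not stated there. RMA compresses weak differences, detection calls were not used here, and the number of arrays limits the precision.

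Of 35556 probe sets, 21789 carried 1 gene in the platform annotation, 1621 several and 12146 none; only the first kind was named, and 21698 matched RefSeq (GRCm38.p6) by gene identifier. For 999 genes with several probe sets the brightest was used. A gene was measured where its higher value passed the floor (5.11). Where a control lies below a floor, the fold is at least the brighter signal over that floor. Differences are Ad-caERα minus Ad-DsRed, counted at 2-fold. Only the 2-fold count and the ranking were tried on simulated data, and the other steps were not. The ranking trial set 1 difference far above the others, so it checks the code only. The simulated noise was the same at all signal levels, so the count trial does not cover signals near the floor. Of the measured genes, 140 had the same value on both arrays.

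The genes and lists were chosen with earlier results of these data known. Partner lists come from general knowledge of the proteins. Named were the 4 genes, Esr1, Pdzd3, 3 neighbours on each side, the genes nearest Pdzk1ip1 in difference, the Z-disc and ERM genes, and each list's extremes; other partners were named for what they encode, after their values were seen. Alternatives covered floor, centring, loess (span 0.3), probe-set averaging, threshold and list summary. Python 3.11.15, numpy 2.4.6, pandas 2.3.3, statsmodels 0.14.6 and matplotlib 3.10.9 were used.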

Additional observations from a re-analysis of the deposited data

How the results depend on the processing

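No paired analysis was possible because there is 1 array for each vector, and no replicate could be left out. With values raised to the higher floors (99th percentile of the receptor probe sets, or the median of all probe sets; both chosen after seeing the data and nearly equal), the Pdzk1ip1 difference was 3.66 or 3.65, in place of 4.48. Raising values to any of the 3 floors set the Pdzk1 difference to 0, because both its signals lie below each. The other 19 of 24 recalculated member differences moved by less than 0.13, the SD between probe sets of a gene. Many of these could not move, so their number is no measure of stability. Averaging probe sets could not move them, since each gene has 1. Slc9a3r1 and Slc9a3r2 lie above all 3 floors and Pdzk1ip1 above the lowest, so raising values to those floors left them unchanged. Centring shifts all genes by the same amount. Pdzk1ip1 ranked 1 among measured genes and after loess correction, and Slc9a3r2 ranked 11817 among measured genes, where fewer genes are ranked. All 32 recalculated list medians moved by less than 0.13, but that of transporters and channels turned to 0.077 with the higher floors and to 0.031 after loess correction, so it has no settled sign. The counts of 80 higher and 13 lower genes became 247 and 120 at 1.5-fold and 27 and 4 at 3-fold. Signals near background limit what can be said of Pdzk1, Pdzd3 and the control level of Pdzk1ip1.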
